A study of Mus musculus with 8 samples.

Results

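The 10 genes described here encode the contractile apparatus of smooth muscle and a factor that switches it on. Smooth muscle forms the muscular wall of the colon and moves its contents. The genes are Acta2, Actg2, Myh11, Des, Tagln, Cnn1, Lmod1, Synpo2, Smtn and Myocd, taken by symbol as a set of known role, and all 10 are among the 18262 genes of the deposited table. The data are RNA sequencing of colon from wild-type (WT) mice with colitis, all given dextran sulfate sodium (DSS), which damages the gut lining. In the DSS + GAA group, 4 libraries come from animals treated in addition with 20 mg/kg of GAA, a lanostane compound of Ganoderma mushrooms called ganoderic acid A in full. The DSS group has 4 libraries from animals without GAA. Both groups carry replicate numbers 1, 2, 4 and 5, and values per library are given in that order throughout. The treatment labels of the DSS + GAA libraries read 20, 21, 22 and 23 mg/kg, while the title and the design text give 20 mg/kg, and these 4 libraries are treated here as replicates of 1 dose. No colon without DSS was analysed here, so the level of these genes before colitis is not known from these data. Strain, age, the colon segment and the number of animals behind a library are not given in the sources used here, and p-values measure only the spread between these libraries.

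In smooth muscle, calcium entry activates a kinase that phosphorylates the light chain of smooth muscle myosin, and the myosin then pulls on actin filaments. The filaments are tied through dense bodies and adhesion plaques to the cell membrane and to the intermediate filament network. The genes of this apparatus are switched on together by serum response factor (SRF), which binds a DNA element called the CArG box, with myocardin and its relatives as coactivators. In a bulk sample, fewer cells of a type and less RNA per cell cannot be told apart.

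The deposited values are TPM, a unit scaled to transcript length and to a fixed total per library. Sequencing depth cannot be read from it and is unknown here. Tests were run with limma on log2(TPM + 1) over the 14217 genes with at least 1 TPM in at least 4 of the 8 libraries, and a gene was called at an adjusted p under 0.05. All 10 contractile genes passed that filter. Of the genes tested, 34.1% were called in either direction, 28.2% lower and 5.96% higher in DSS + GAA than in DSS, and the median log2 fold change of all of them was -0.25. That median moved with the scaling: with trimmed mean scaling it was -0.004 and the calls were 1890 higher and 1648 lower, against 847 higher and 4006 lower on the deposited scale.

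None of the 10 contractile genes was called lower or higher in DSS + GAA than in DSS, where 28.2% and 5.96% of all tested genes were. At an unadjusted p under 0.05, limma also gave 0 of the 10. Each of the 10 had a lower mean TPM in DSS + GAA, but 71.4% of all tested genes had a log2 fold change below 0, and 3, 2 and 4 of the 10 turned positive under trimmed mean scaling, quantile normalization and median centring. The median log2 fold change was -0.32 over the 10 genes. In each of the 10 the TPM values of the groups overlapped, whereas the groups did not overlap in 32.9% of all tested genes. The smallest adjusted p, 0.128 by limma, belonged to Synpo2. The 95% intervals, given as folds of TPM + 1 in DSS + GAA over DSS, had lower ends from 0.384 for Acta2 to 0.58 for Myocd. Their upper ends ran from 1.03 for Synpo2 to 1.54 for Lmod1. A sizeable fall could thus not be told from no change in any of the 10. On the deposited scale a moderate rise lay within the interval of genes such as Lmod1, but outside that of Synpo2. Leaving out DSS + GAA replicate 1 gave 2 calls, of Acta2 (log2 fold change -0.87, adjusted p = 0.0462 by limma) and Synpo2 (-0.86, adjusted p = 0.0465), and array quality weights gave 1, of Synpo2 (-0.74, adjusted p = 0.0343). Under these 2 settings 31.45% and 37.9% of all tested genes were called lower, so the calls stayed below that share. In the authors' deposited table, 0 of the 10 had a false discovery rate under 0.05, where 26.5% of all rows had one.

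**Figure D1:**
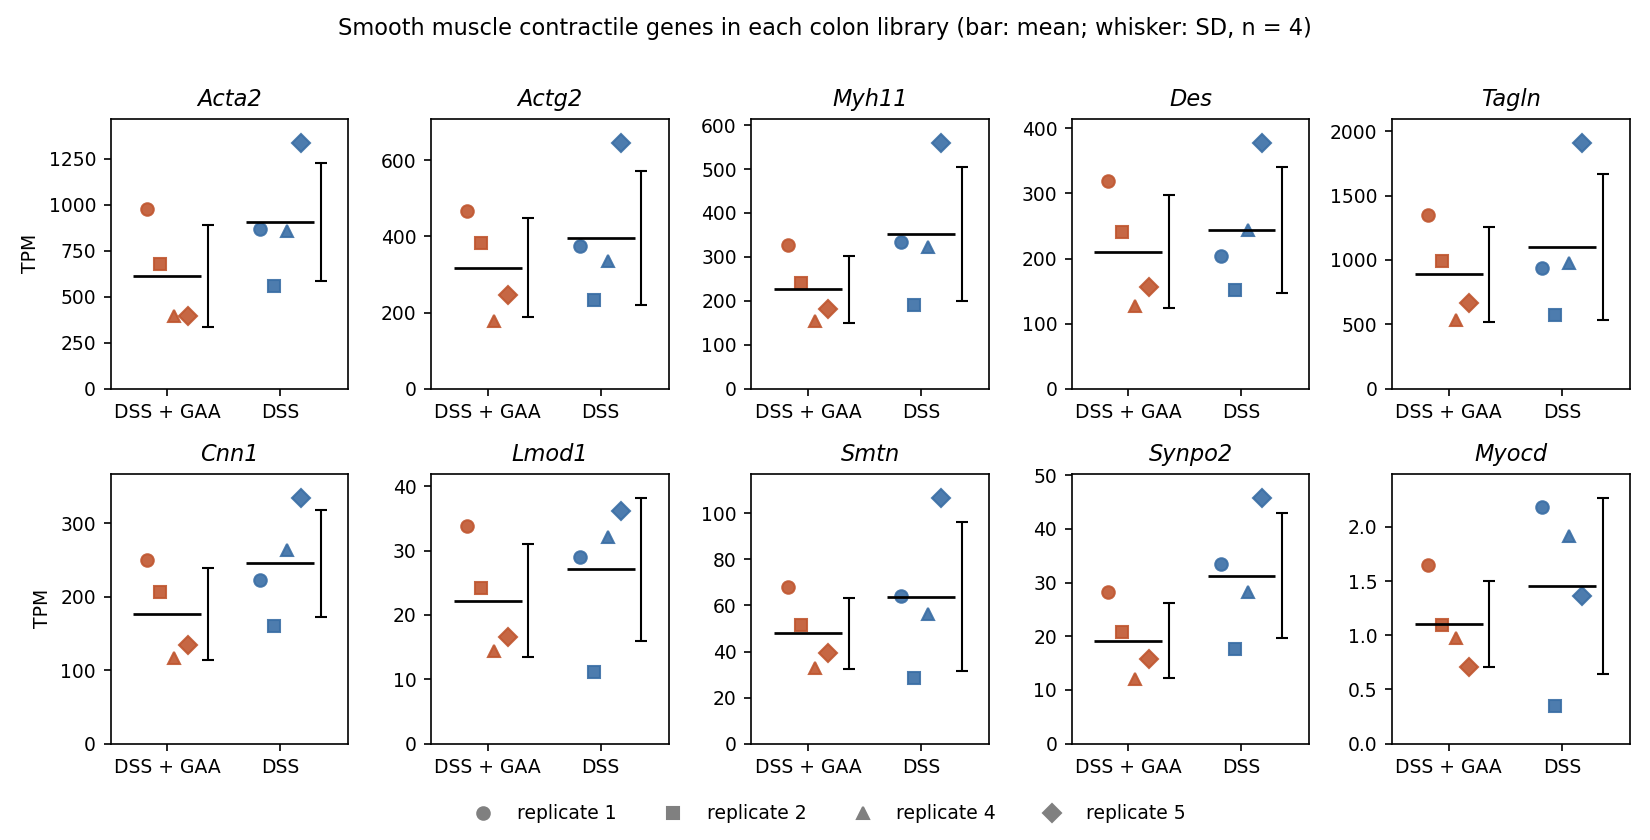
Each panel plots the TPM of 1 contractile gene (vertical axis, from 0) in the 4 DSS + GAA libraries on the left and the 4 DSS libraries on the right, with the symbol showing the replicate number, the bar the mean and the whisker the SD (n = 4). The groups overlap in all 10 panels, and DSS replicate 5 is the highest library in 9 of them.

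The actins form the thin filament on which myosin pulls. Acta2, which encodes alpha smooth muscle actin (ENSMUSG00000035783, GRCm38 chr19:34241090-34255590, minus strand), had 976, 679, 396 and 396 TPM in the DSS + GAA libraries and 871, 561, 857 and 1335 TPM in the DSS libraries. Replicates 1 and 2 of DSS + GAA lay above the lowest DSS library, and replicates 4 and 5 lay below every DSS library. The mean was 612 ± 277 TPM in DSS + GAA and 906 ± 319.9 TPM in DSS (SD, n = 4 each), a log2 fold change of -0.61 ± 0.34 (SE) with an adjusted p of 0.198 by limma. Actg2 encodes gamma smooth muscle actin, the main actin of visceral muscle, and lies at chr6:83512905-83536265 on the minus strand. Its TPM was 467, 382, 177 and 246 in DSS + GAA and 376, 232, 334 and 644 in DSS, so the highest DSS + GAA library exceeded 3 of the 4 DSS libraries. The log2 fold change was -0.32 ± 0.36 (adjusted p = 0.526 by limma). Of the 100-base windows along the longest annotated transcript of each actin, 0 were shared with the other actin genes.

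The stretch of 250 bases before the RefSeq start was read for the 6 contractile genes that a RefSeq table of promoters (build GRCm38.p6) holds, and 2 are shown because they are the ones that hold a near match to the CArG box of SRF. Both strands were searched. Counting the 50 bases after the start as well, no window held an exact CArG box, which 1.63% of the 32851 promoters in the table do. A match with at most 1 mismatch was found 2 times in Acta2, 84 and 34 bases before the start, and 2 times in Lmod1, 189 and 164 bases before it. Such a match occurs in 21.1% of all promoters in the table. It describes the letters alone, and whether SRF binds there was not tested. Capitals mark the matches.
Acta2, chr19:34255374-34255623, minus strand: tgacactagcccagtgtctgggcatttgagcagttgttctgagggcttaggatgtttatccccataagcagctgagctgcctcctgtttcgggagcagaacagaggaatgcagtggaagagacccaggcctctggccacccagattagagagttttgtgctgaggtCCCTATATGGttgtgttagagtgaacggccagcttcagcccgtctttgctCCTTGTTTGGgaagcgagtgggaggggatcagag
Lmod1, chr1:135324563-135324812, plus strand: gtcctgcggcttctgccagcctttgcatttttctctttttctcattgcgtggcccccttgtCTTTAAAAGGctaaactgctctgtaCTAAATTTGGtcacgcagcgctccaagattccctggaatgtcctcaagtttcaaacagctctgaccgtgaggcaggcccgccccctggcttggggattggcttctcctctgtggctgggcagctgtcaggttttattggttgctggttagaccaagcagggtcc

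The smooth muscle myosin heavy chain, Myh11, is the motor of the apparatus and a specific marker of the tissue (chr16:14194535-14291372, minus strand). It had 328, 241, 155 and 181 TPM in DSS + GAA and 334, 190.0, 323 and 559 TPM in DSS. DSS + GAA replicates 4 and 5 lay below every DSS library, while replicates 1 and 2 lay within the DSS range. Means were 226 ± 76.7 TPM in DSS + GAA and 352 ± 153 TPM in DSS, and the log2 fold change was -0.59 ± 0.33 (adjusted p = 0.193 by limma). Desmin, Des, the intermediate filament protein of muscle (chr1:75360329-75368579, plus strand), had 318, 241, 127 and 156 TPM in DSS + GAA and 203, 152, 244 and 377 TPM in DSS. Here DSS + GAA replicate 1 exceeded 3 DSS libraries, and the log2 fold change was -0.23 ± 0.34 (adjusted p = 0.632 by limma). Its sign turned positive, at 0.05, with trimmed mean scaling, at 0.08 with median centring, and at 0.01 without DSS replicate 5.

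Tagln, Cnn1, Lmod1 and Smtn encode proteins of the thin filament. Tagln, which encodes the actin-binding protein transgelin or SM22 alpha (chr9:45929619-45936058, minus strand), was the most abundant of the 10 genes, with 1352, 994, 534 and 668 TPM in DSS + GAA and 941, 572, 976 and 1906 TPM in DSS. The highest DSS + GAA library exceeded 3 DSS libraries, and the log2 fold change was -0.27 ± 0.39 (adjusted p = 0.622 by limma), which turned positive, at 0.01, 0.04 and 0.04, under trimmed mean scaling, median centring and without DSS replicate 5. An antisense gene, Gm48529, overlaps 62.4% of the exonic bases of Tagln on the opposite strand, and reads of such pairs cannot be told apart where strand is not given. Cnn1 encodes calponin 1, which binds actin and restrains myosin (chr9:22099216-22109630, plus strand), and it had 249.6, 206, 116 and 134 TPM in DSS + GAA and 223, 160.1, 263 and 334 TPM in DSS. Calponin varied least of the 10, with the highest of the 8 libraries 2.87 times the lowest, and its log2 fold change was -0.49 ± 0.29 (adjusted p = 0.213 by limma).

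Lmod1 encodes leiomodin 1, which starts new actin filaments in smooth muscle (chr1:135324807-135368065, plus strand). It had 33.8, 24.2, 14.4 and 16.5 TPM in DSS + GAA and 29.0, 11.1, 32.1 and 36.1 TPM in DSS, so the lowest library of all was DSS replicate 2. Smtn, which encodes the actin-associated protein smoothelin (chr11:3517523-3540612, minus strand), had 67.9, 51.5, 32.9 and 39.2 TPM in DSS + GAA and 63.9, 28.6, 56.2 and 107 TPM in DSS. Again DSS replicate 2 was the lowest library of the 8, and a transcript on the opposite strand, Gm11946, overlaps 16.3% of the exonic bases of Smtn. The log2 fold change was -0.23 ± 0.38 for Lmod1 (adjusted p = 0.665) and -0.32 ± 0.37 for Smtn (adjusted p = 0.531), both by limma, and that of Lmod1 was 0.03, 0.02 and 0.07 under trimmed mean scaling, quantile normalization and median centring.

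Synpo2 encodes synaptopodin 2 or myopodin, which bundles actin at dense bodies (chr3:123076519-123236149, minus strand). It had 28.2, 20.9, 12.1 and 15.7 TPM in DSS + GAA and 33.5, 17.7, 28.2 and 45.7 TPM in DSS. Replicates 4 and 5 of DSS + GAA were below every DSS library, while replicates 1 and 2 lay within the DSS range. The mean was 19.2 ± 6.98 TPM in DSS + GAA and 31.3 ± 11.7 TPM in DSS, and the log2 fold change of -0.67 ± 0.31 (adjusted p = 0.128 by limma) had the largest size of the 10. Myocd, the gene of the SRF coactivator myocardin (chr11:65176561-65269989, minus strand), had 1.65, 1.09, 0.977 and 0.704 TPM in DSS + GAA and 2.19, 0.350, 1.91 and 1.365 TPM in DSS. It was by far the lowest of the 10 on this per-length scale, and its libraries spread most, with the highest 6.25 times the lowest. The log2 fold change of Myocd was -0.17 ± 0.28 (adjusted p = 0.664 by limma), and 0.22 and 0.14 under quantile normalization and median centring.

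**Figure D2:**
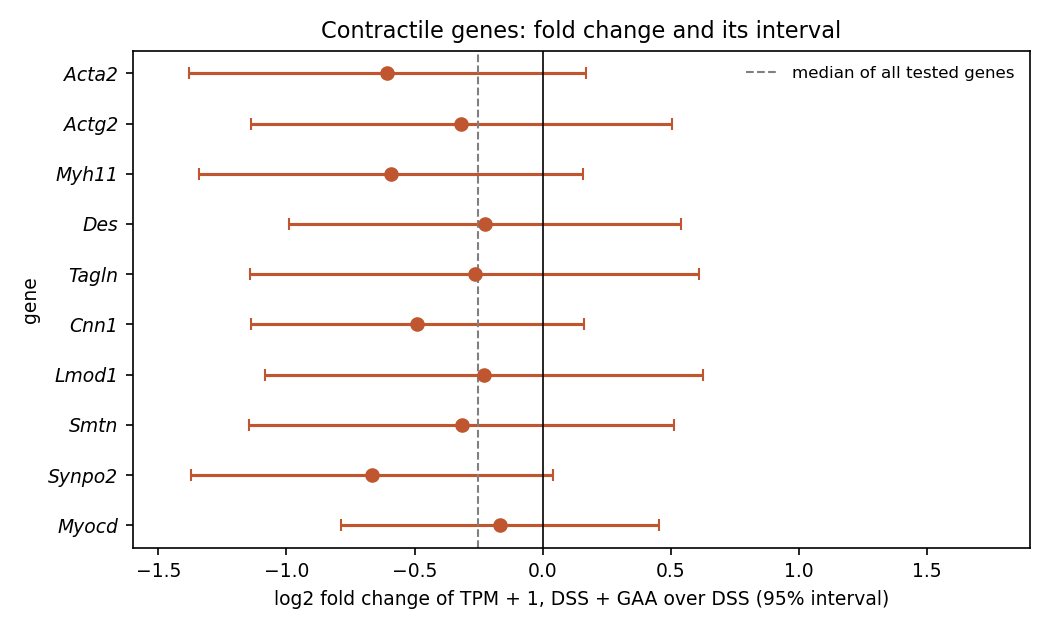
Points give the log2 fold change of TPM + 1, DSS + GAA over DSS (horizontal axis), of each contractile gene (vertical axis), lines its 95% interval from limma, and the dashed line the median of all tested genes, -0.25. All 10 intervals cross 0, and all 10 points lie below 0 on the deposited scale, where 4 turn positive with median centring.

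The 10 genes went up and down together from library to library, within both groups. DSS + GAA replicate 1 was the highest of its group in 10 of 10 genes and replicate 4 the lowest in 9. Among the DSS libraries, replicate 5 was the highest in 9 of the 10 and replicate 2 the lowest in all 10. Summed over the genes, the level was 3822, 2841, 1565 and 1853 TPM in DSS + GAA and 3077, 1924, 3116 and 5345 TPM in DSS, between 0.157% and 0.535% of a library. The spread of these sums within a group was wider than the gap between the groups' means. The coefficient of variation of single genes was 32.2% to 45.3% in DSS + GAA and 29.7% to 55.8% in DSS. Pearson's r of log2(TPM + 1) over the 8 libraries, a description of points that share their library and its scaling, lay between 0.857 and 0.986 for the 36 pairs that leave Myocd out. For the 9 pairs with Myocd it lay between 0.567 and 0.867. Myocd had by far the fewest TPM of the 10, and whether that lowers its r was not tested.

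**Figure D3:**
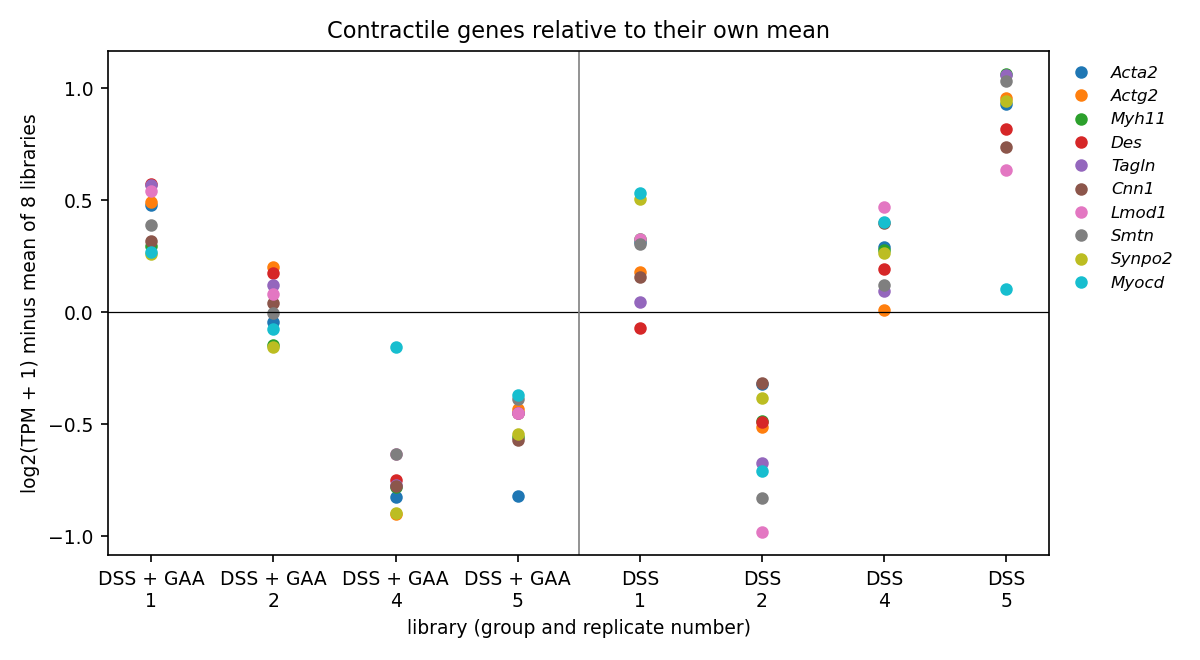
Each point is log2(TPM + 1) of 1 contractile gene minus its mean over the 8 libraries (vertical axis), by library (horizontal axis), with the DSS + GAA libraries on the left and the DSS libraries on the right. Within a library the colours lie close together, with DSS + GAA replicates 4 and 5 below 0 and DSS replicate 5 above 0 for every gene, while DSS replicate 2 lies below 0.

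Outside the lists of contractile genes and markers used here, the 10 genes whose pattern over the 8 libraries was most like the mean pattern of the contractile genes were Msrb1, Hoxd12, Chrdl1, Pnck, Itga8, Prdm6, Ckb, Aspn, Orai3 and Klhl23, with Pearson's r between 0.974 and 0.993. Itga8 encodes an integrin subunit, Prdm6 a transcriptional repressor, Ckb a creatine kinase and Orai3 a calcium channel subunit. By deviations from the group means the closest 5 were Atp6v1g2, Hoxd12, Msrb1, Chrdl1 and Fbxo10, with r between 0.987 and 0.997. Msrb1, a selenium-containing enzyme that repairs oxidised methionine, averaged 65.9 TPM in DSS + GAA and 72.9 TPM in DSS. Of the named 12 genes, none was called by limma.

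A ratio of 2 genes within a library does not move with the scaling between libraries, and 4 such ratios were tested. Tagln over Myh11 was 4.13, 4.13, 3.46 and 3.70 in DSS + GAA and 2.82, 3.01, 3.02 and 3.41 in DSS. The groups did not overlap, with every DSS + GAA library above every DSS library. Smtn over Myh11 was likewise higher in 4 of 4 DSS + GAA libraries, at 0.207, 0.214, 0.213 and 0.217, against 0.191, 0.1504, 0.174 and 0.191 in DSS. Synpo2 over Des was lower in 4 of 4, at 0.0885, 0.0866, 0.0954 and 0.1007 in DSS + GAA and 0.165, 0.1165, 0.1155 and 0.121 in DSS. On the log2 scale the differences were 0.33, 0.28 and -0.44, and each had an adjusted p of 0.0381 over the 4 ratios (two-sided exact permutation test, 70 assignments, n = 4 each, smallest possible p = 0.0286). Acta2 over Actg2 was 2.09, 1.78, 2.23 and 1.61 in DSS + GAA and 2.32, 2.42, 2.565 and 2.07 in DSS, a difference of -0.29 that did not pass (adjusted exact permutation p = 0.0857).

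These 3 calls did not hold under several alternatives. They were lost, with adjusted exact permutation p between 0.0571 and 0.0762, without any one of DSS + GAA replicates 1, 2 and 5 or DSS replicates 1, 2 and 4, and kept without DSS + GAA replicate 4 or DSS replicate 5. Across those 8 fits the log2 difference ran from 0.29 to 0.38 for Tagln over Myh11, 0.21 to 0.32 for Smtn over Myh11 and -0.49 to -0.32 for Synpo2 over Des. The unadjusted exact permutation p of Synpo2 over Des was 0.0286, the smallest possible, in all 8, and that of Smtn over Myh11 in all but the fit without DSS + GAA replicate 5. In the 6 fits with lost calls that of Tagln over Myh11 was 0.0571, which raised the adjusted p of the other ratios. For these 3 ratios the groups did not overlap, so leaving out 1 library could not make them overlap. With so few libraries the exact p moves in coarse steps. Kept and lost calls therefore say little about how robust a ratio is. Over all tested genes, the median log2 fold change ran with transcript length, at -0.17, -0.21, -0.27 and -0.35 across 4 equal classes of genes, from the shortest to the longest transcripts. The longest annotated transcript has 1595 bases for Tagln, 3386 for Smtn and 6549 for Myh11, and 9203 bases for Synpo2 against 3028 for Des. Once each library's trends with transcript length and GC content were taken off, an alternative added after seeing the data, the differences were 0.15, 0.21 and -0.23, with adjusted exact permutation p of 0.229, 0.171 and 0.114. Relative to Myh11, 7.07% of all other tested genes had groups that did not overlap, and 3 of the 9 other contractile genes did, namely Des, Smtn and Tagln, all higher in DSS + GAA. Taken over Actg2 and over Des, 5.33% and 8.05% of all other tested genes had groups that did not overlap. Of all 45 pairs of contractile genes, 6 had ratios that did not overlap between the groups, and the 3 called ratios are among these 6. The adjusted p covers the 4 tested ratios and not all 45 pairs, so the calls depend on which pairs were tested. The contractile genes, from which these pairs were taken, were chosen with earlier results of these data known.

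**Figure D4:**
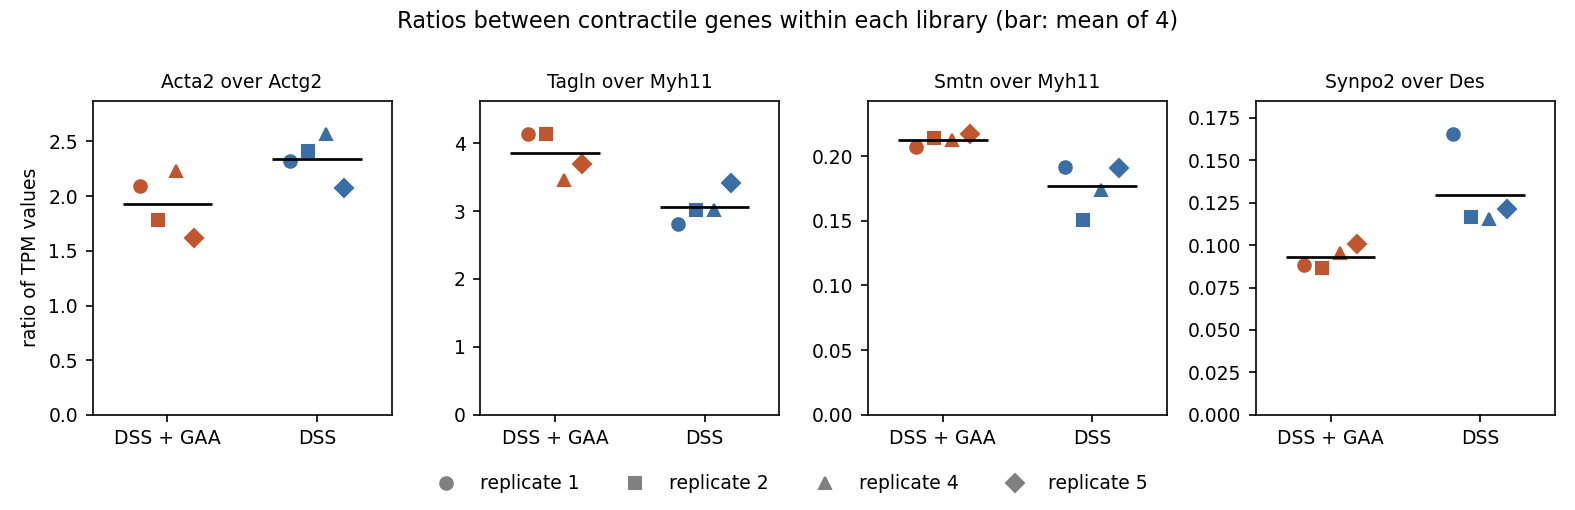
Each panel plots the ratio of the TPM values of 2 contractile genes within a library (vertical axis, from 0) for the 4 DSS + GAA libraries on the left and the 4 DSS libraries on the right, with the symbol showing the replicate number and the bar the mean. Tagln over Myh11 and Smtn over Myh11 are higher in every DSS + GAA library, Synpo2 over Des is lower in every one, and Acta2 over Actg2 overlaps.

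Other genes of the contractile machinery were grouped by role. Of 63 tested, 29 fell, 1 rose and 33 did not pass on the deposited scale, so 46.0% were lower where 28.2% of all tested genes were, with a median log2 fold change of -0.61 against -0.25 for all. With the other scalings the share lower lay near that of all genes: 8 genes or 12.7% against 11.6% with trimmed mean scaling, 10 or 15.9% against 11.3% with quantile normalization, and 7 or 11.1% against 9.20% with median centring. The medians stayed apart under these scalings, in the same order at -0.36 against -0.004, -0.40 against 0.02 and -0.31 against 0.05 for all genes. The share lower also lay near that of all genes without DSS replicate 1 (7 genes, 11.1% against 12.01%), DSS + GAA replicate 4 (13 genes, 20.6% against 20.3%) or DSS + GAA replicate 5 (14 genes, 22.2% against 21.3%). Without DSS + GAA replicate 2 it was 18 genes or 28.6% against 17.2%, without DSS replicate 4 it was 15 or 23.8% against 19.1%, and without DSS replicate 5 it was 18 or 28.6% against 23.3%. The count was 38 without DSS + GAA replicate 1 (60.3% against 31.4%), 33 without DSS replicate 2 (52.4% against 23.7%) and 40 with array quality weights (63.5% against 37.9%). Of the genes named below, Cacna1c, Cacnb2, Actn1, Itga7, Vipr2 and Pde5a stayed lower, with an adjusted p under 0.05 by limma, under all 21 alternatives to the test. Not all of them tracked the contractile genes closely. By deviations from the group means, r with their mean pattern was 0.97 for Cacnb2, 0.89 for Pde5a and 0.70 for Cacna1c. It was 0.57 for Actn1, 0.51 for Vipr2 and 0.32 for Itga7. Which cells hold the RNA of these genes was not tested.

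Receptors and cyclic GMP signalling, which relax or contract the muscle on outside cues, had 7 of 9 genes lower on the deposited scale, 2 or 3 under another scaling and 3 when leaving out DSS + GAA replicate 4 or 5 or DSS replicate 1 or 4. The share of all tested genes lower was 28.2% on the deposited scale and 9.20% to 11.6% with the other scalings. It was 12.01% to 21.3% with those libraries left out one at a time. Pde5a, the phosphodiesterase that breaks down cyclic GMP, averaged 59.2 ± 19.6 TPM in DSS + GAA and 126 ± 16.7 TPM in DSS (log2 fold change -1.12, adjusted p = 0.00755 by limma). Vipr2, a receptor for vasoactive intestinal peptide, had a log2 fold change of -1.29 (adjusted p = 0.00654 by limma). In calcium and potassium handling 6 of 12 fell, 2 or 3 with the other scalings and 2 without DSS replicate 1. Cacna1c encodes the pore of the L-type calcium channel through which calcium enters to start a contraction, and it had 6.62, 4.49, 3.25 and 3.28 TPM in DSS + GAA and 16.6, 12.4, 12.1 and 13.9 TPM in DSS. All DSS + GAA libraries lay below all DSS libraries (log2 fold change -1.48 ± 0.21, adjusted p = 0.00510 by limma), and its auxiliary subunit gene Cacnb2 did the same (-1.41, adjusted p = 0.0127).

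Among adhesion plaque and dystrophin complex genes, which fasten filaments to the membrane, 9 of 19 fell and 1 rose, where 28.2% of all tested genes were lower. With each other scaling, and without DSS replicate 1, 2 of the 19 were lower, which is near the 9.20% to 12.01% of all tested genes lower under those settings. Actn1, which encodes the actin crosslinker alpha-actinin 1, averaged 69.99 ± 11.1 TPM in DSS + GAA and 145 ± 12.5 TPM in DSS (log2 fold change -1.05, adjusted p = 0.00460 by limma). Itga7, a laminin-binding integrin subunit of muscle, fell alike (-1.09, adjusted p = 0.00616). The gene that rose was Ldb3, a Z-disc and dense body protein, with 8.44 ± 1.92 TPM in DSS + GAA and 4.31 ± 1.03 TPM in DSS (0.83, adjusted p = 0.0179 by limma), named here after its values were seen, and its call was lost without DSS + GAA replicate 2.

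In myosin regulation 3 of 9 fell, near the 28.2% of all tested genes called lower. The number was 0 with trimmed mean scaling, with median centring, and without DSS + GAA replicate 4 or 5 or DSS replicate 1 or 4, and 1 with quantile normalization or without DSS + GAA replicate 2. Among them was the kinase that phosphorylates the myosin light chain. Mylk had 171, 126, 88.6 and 73.9 TPM in DSS + GAA and 226, 174, 214 and 179 TPM in DSS, with no overlap (log2 fold change -0.85, adjusted p = 0.0280 by limma). Ppp1r12b, which encodes a targeting subunit of the phosphatase that opposes this kinase, also fell (-0.84, adjusted p = 0.0311), while the light chain gene Myl9 did not pass (-0.39, adjusted p = 0.433). Of 6 further thin filament genes 3 fell (2 with quantile normalization, 0 with the 2 other scalings and without DSS replicate 1), namely Cald1, the caldesmon gene (-1.30, adjusted p = 0.0279), Nexn (-1.08, adjusted p = 0.0192) and Csrp1 (-1.03, adjusted p = 0.0253), all by limma. These calls were less firm: with trimmed mean scaling and with median centring none of the named genes Mylk, Ppp1r12b, Cald1, Nexn and Csrp1 passed, and each was also lost without DSS replicate 1. The tropomyosin genes did not pass, with a log2 fold change of -0.25 for Tpm1 (adjusted p = 0.273) and -0.50 for Tpm2 (adjusted p = 0.186) by limma, the first of them 0.02 with trimmed mean scaling.

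Of the 8 regulators of the programme 1 fell, the SRF partner Elk1, which can displace myocardin from SRF (log2 fold change -0.78, adjusted p = 0.0138 by limma), a call lost under the 3 other scalings and without DSS replicate 1. Srf itself had 26.3, 25.5, 17.1 and 20.2 TPM in DSS + GAA and 26.2, 20.7, 28.4 and 26.1 TPM in DSS, with groups that overlapped (-0.19, adjusted p = 0.390 by limma). The coactivator genes Mrtfa (-0.01, adjusted p = 0.952) and Mrtfb (-0.25, adjusted p = 0.291) did not pass by limma, nor did Klf4, which represses contractile genes in cultured smooth muscle cells (0.18, adjusted p = 0.515), or Mef2c (-0.67, adjusted p = 0.0611). Klf4 averaged 453 TPM in DSS + GAA and 392 TPM in DSS. Its r with the mean pattern of the contractile genes over the 8 libraries was -0.47, and which cells of the colon hold its RNA was not tested. Under trimmed mean scaling the log2 fold change of Srf was 0.07 and that of Mrtfa 0.24, and Mrtfb stood at 0.09 with quantile normalization.

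**Figure D5:**
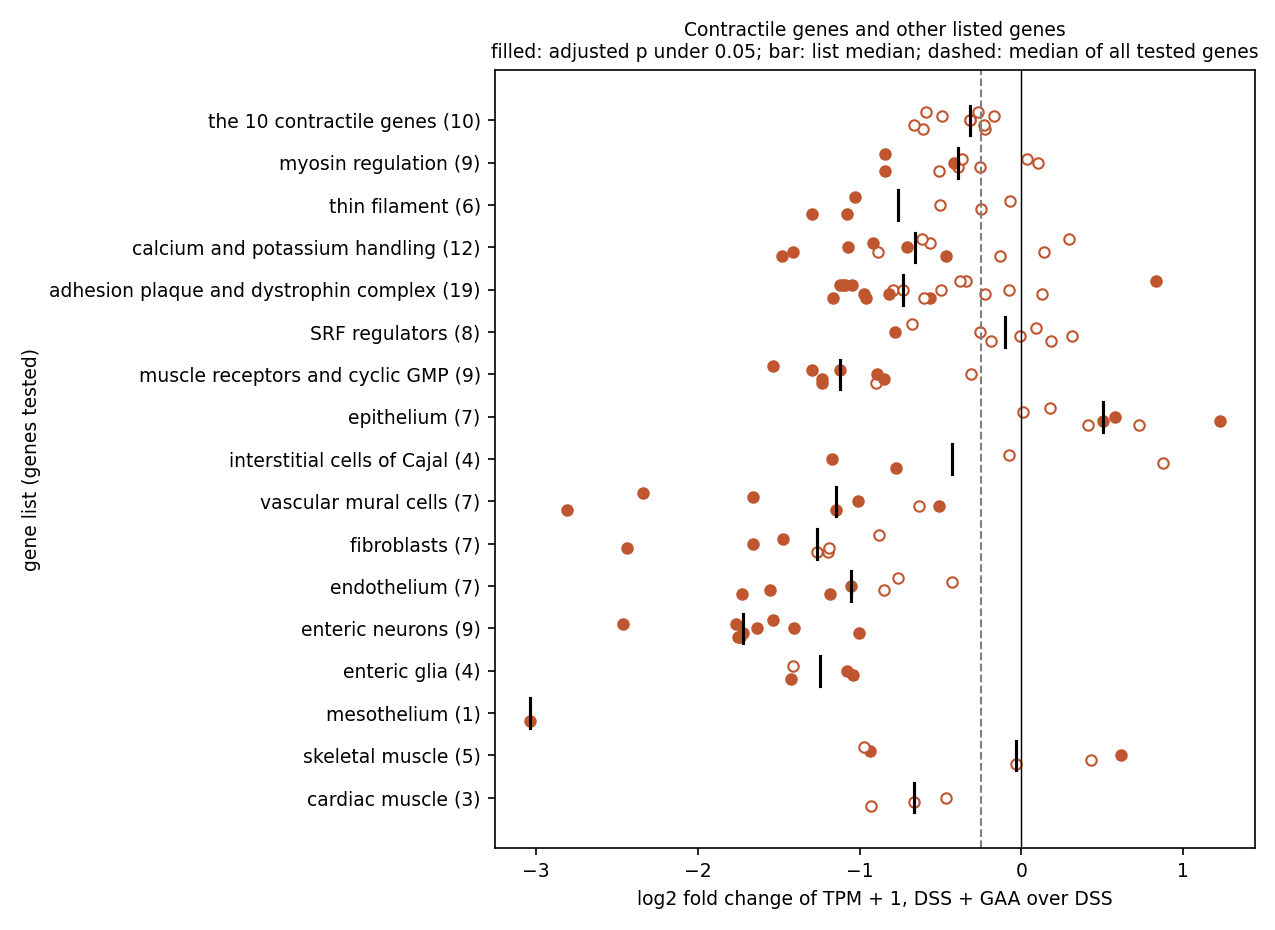
Each point is the log2 fold change of TPM + 1, DSS + GAA over DSS (horizontal axis), of 1 gene, by gene list (vertical axis), filled where limma called it, with a bar at the median of the list. No point of the 10 contractile genes is filled, while all 9 enteric neuron genes are filled and lie below 0.

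Colon also holds vascular muscle, nerves and connective tissue, whose RNA is part of these values. For the counts that follow, 28.2% of all tested genes were lower on the deposited scale, and 9.20% to 11.6% with the other scalings. Enteric neuron markers fell in 9 of 9, under the test and all 21 alternatives to it (8 of 8 at the stricter filter, which Chat did not pass), with a median log2 fold change of -1.72. Vip, the gene of vasoactive intestinal peptide, averaged 165 TPM in DSS + GAA and 866 TPM in DSS (-2.46, adjusted p = 0.00531 by limma). The summed neuron markers ran from 182 to 527 TPM in DSS + GAA and from 944 to 1761 TPM in DSS. Vascular mural cell markers, from pericytes and vessel muscle that also use Acta2, Tagln and Myh11, fell in 6 of 7 tested (3 or 4 under another scaling, and 3 without DSS + GAA replicate 4 or 5 or DSS replicate 1 or 4) and summed to 107 to 352 TPM in DSS + GAA and 488 to 843 TPM in DSS.

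Fibroblast markers fell in 3 of 7 (sums of 402 to 1410 TPM in DSS + GAA and 1626 to 4697 TPM in DSS), endothelial markers in 4 of 7 (23.9 to 97.8 TPM and 97.3 to 166.5 TPM) and glial markers in 3 of 4 (11.4 to 35.3 TPM and 34.1 to 67.8 TPM). Without DSS replicate 1 each of these 3 lists had 1 marker lower, without DSS + GAA replicate 1 they had 6, 6 and 4, and with the other scalings 3 fibroblast, 2 endothelial and 1 or 2 glial markers were lower. Msln, the only mesothelial marker tested, had 1.63, 1.48, 1.16 and 0.922 TPM in DSS + GAA and 30.9, 23.7, 11.97 and 11.1 TPM in DSS (log2 fold change -3.04, adjusted p = 0.00425 by limma). Mesothelium covers the outer surface of the gut wall, next to the muscle. Interstitial cells of Cajal, the pacemakers of gut muscle, had 2 of 4 markers lower (Etv1, -1.17, adjusted p = 0.00955 by limma), while their chloride channel gene Ano1 did not pass (0.88, adjusted p = 0.0939). With each other scaling 1 of these markers was lower and 1 higher. Epithelial markers rose in 3 of 7, where 5.96% of all tested genes were higher on the deposited scale. Their sums were 15363 to 16593 TPM in DSS + GAA and 9854 to 12495.5 TPM in DSS. The number higher was 1 to 5 under another scaling and 1 to 4 without single libraries, at 1 without DSS + GAA replicate 2 or 4 or DSS replicate 1. It was 1 with quantile normalization. Of all 14217 tested genes, 1890 were higher with trimmed mean scaling, 1677 with quantile normalization and 2165 with median centring. Without single libraries the number of all genes higher ran from 361 of 13956 to 1277 of 14103.

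The library highest in contractile genes was also the highest in 5 of the other marker lists in DSS + GAA, but not in DSS. Within DSS, replicate 5 had the highest summed contractile level and the lowest summed level of neuron, fibroblast, mural, endothelial and glial markers. Within DSS + GAA, replicate 1 was the highest for the contractile genes and for all 5 of those sums. Striated muscle made up little: skeletal markers summed to 11.7 to 27.3 TPM in DSS + GAA and 16.5 to 31.4 TPM in DSS (1 of 5 tested lower and 1 higher), and cardiac markers to 11.3 to 18.7 TPM and 20.7 to 34.3 TPM (0 of 3 called by limma, where Tnnt2 and Tnni3 had an unadjusted p under 0.05). None of the markers of these lists present in the table was at 0 in every library. What part the makeup of each piece of colon has in the level of the contractile genes was not tested.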

How the data were processed

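Mouse colon RNA was poly(A)-selected, and paired reads were taken with an MGI-T7 sequencer, per the labels' protocols. The authors deposited TPM values for 18262 genes in 8 libraries, with their own log2 fold change, p-value and false discovery rate per gene. The submitters' processing notes name the build mm10, the aligners HISAT2 and Bowtie2, the counter featureCounts of Subread, edgeR, and also GATK, SAMtools and Trimmomatic. Which of them made each column, and whether counting used strand, the sources used here do not give. The depth of each library is unknown, so no interval that needs counts is given.

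From the deposited TPM, log2(TPM + 1) was tested with limma 3.58.1 (R 4.3.3; variance trend, robust empirical Bayes, Benjamini-Hochberg over the 14217 genes with at least 1 TPM in at least 4 libraries; 4045 were left out), with 4 DSS + GAA and 4 DSS libraries and no other term. A fold change of TPM + 1 understates that of low genes such as Myocd. Within-library ratios were tested by two-sided exact permutation. Simulated data with 14217 genes had noise drawn independently for each gene. There the fit called 62 of 100 genes changed by 1 and 98 of 100 changed by 2 on the log2 scale. It also called 6 unchanged genes. The share of genes changed was far smaller than the share called in the real data, where contractile genes also vary together. These rates therefore do not give the power for the contractile genes. Alternatives changed the pseudocount, filter, scaling, model and libraries used.

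The members and gene lists were chosen with earlier results of these data known. Named genes are the 10 members, the 2 genes of smallest limma p in each role of the wider list with 9 fixed by role, the most abundant and the smallest-p marker of each list, and the genes most like the members' mean pattern. Gene positions and transcript lengths are from GENCODE vM21 (GRCm38). Promoter letters are from RefSeq (GRCm38.p6), where 6 of the 10 genes matched by symbol. The protein sequences of the smooth muscle actins, which had been meant for printing, were not used here.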

Additional observations from a re-analysis of the deposited data

Results flagged for a closer look

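Of 100 groups of 4 libraries checked, over the contractile genes, the named genes and the ratios, 3 had 1 library far from the others by Dixon's 95% criterion, and chance flags about 1 in 20 groups. Synpo2 over Des reached 0.1652 in DSS replicate 1, with the other DSS libraries between 0.1155 and 0.1213, and the gap was 0.884 of the group's range. Without DSS replicate 1 the log2 difference of that ratio, DSS + GAA minus DSS, was -0.32. Krt8, an epithelial keratin gene, had 4137 TPM in DSS replicate 4, with a gap of 0.95 of the DSS range. Dcn, the decorin gene of fibroblasts, had 3317 TPM in DSS replicate 1, with a gap of 0.845 of the DSS range.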

How the results depend on the processing

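No contractile gene was called higher under any of the 21 alternatives, and the number called lower was 0 under 19 of them, 1 with array quality weights and, without single libraries, 0 to 2. Of all tested genes, 37.9% were lower with array quality weights and 12.01% to 31.45% without single libraries. The number of wider contractile genes lower, 29, was 8 with trimmed mean scaling, 10 with quantile normalization, 7 with median centring and 7 to 38 without single libraries, and the number higher, 1, was 2 with quantile normalization and 0 to 2 without single libraries. Whether the replicate numbers pair the samples is not known. Same-numbered libraries' deviations correlated at 0.18, -0.109, 0.146 and -0.0302, and those of different numbers at -0.167 to 0.146, which cannot settle it. With a replicate block 25 wider genes were lower and 0 contractile genes were called, and the ratios, which cannot pass the threshold in 4 pairs, stood at 0.33 (Tagln over Myh11), 0.28 (Smtn over Myh11) and -0.44 (Synpo2 over Des). With a pseudocount of 5 these ratios were 0.32, 0.28 and -0.35 (adjusted exact permutation p = 0.0762, 0.0571 and 0.0571), with length and GC trends removed 0.15, 0.21 and -0.23, and without single libraries 0.29 to 0.38, 0.21 to 0.32 and -0.49 to -0.32, with Acta2 over Actg2 at -0.36 to -0.21. Log2 fold changes that turned positive were, with trimmed mean scaling, Des 0.047, Tagln 0.0077, Lmod1 0.034, Srf 0.072, Mrtfa 0.24 and Tpm1 0.022; with quantile normalization, Lmod1 0.023, Myocd 0.22, Srf 0.065, Mrtfa 0.36 and Mrtfb 0.086; with median centring, Des 0.077, Tagln 0.038, Lmod1 0.074, Myocd 0.14, Srf 0.11, Mrtfa 0.29, Mrtfb 0.048 and Tpm1 0.053. Without single libraries, Des ran from -0.45 to 0.0098 and Tagln from -0.53 to 0.045, both positive without DSS replicate 5, and Mrtfa from -0.066 to 0.035, positive without DSS + GAA replicate 4, DSS replicate 1 or DSS replicate 4. With length and GC trends removed Mrtfa was 0.043. The cause of these changes was not tested. These scalings moved the median of all genes from -0.25 to -0.004, 0.02 and 0.05. A limma fit of every gene relative to Myh11 was run after seeing the data. It called 0 of 9 contractile genes and 1 of 63 wider genes, where 177 of 14187 genes were lower and 515 higher. The fit was set aside after its output was seen: it gave nearly equal standard errors to all genes (0.42 to 0.49 for the wider genes, 5th to 95th percentile). The alternative with length and GC trends removed was also chosen after seeing the data. Depth limits cannot be given for TPM.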
